A study of Mus musculus with 49 samples.

Results

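Hepatic stellate cells, the vitamin A-storing pericytes of the liver sinusoid, were followed through 9 genes of the 21517 named on the array: Lrat, Reln, Ecm1, Des, Pdgfrb, Acta2, Dcn, Lum and Bgn. They were taken by gene symbol from the probe annotation, and all 9 were measured and tested, since no filter on low values was applied. The array held 1 probe set for 8 of them and 3 for Reln, of which the one with the highest mean over all 49 samples was read.

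The samples were livers and liver tumors of FVB mice on a custom Affymetrix array, in 6 groups. LAP-tTA livers came from 7 mice at 7 weeks, and TRE-MET livers, whose genotype label reads Tre-c-Met, from 7 mice at 6 weeks. By the study's methods, LAP-tTA mice held 2 copies of a Tet-VP16 transactivator under the liver-specific LAP promoter, while TRE-MET mice held 1 copy of it and 1 of human MET under its response element. The transactivator was thus common to both strains by the methods. The label Tre-c-Met of the 6-week mice does not name it, and this was not settled. At 14 weeks there were livers of 7 mice labelled FVB-WT (control) and samples of 7 mice labelled LAP-tTA-Tre-c-Met: liver labelled dis-Liv and ad-Liv, taken here to mean distant from and adjacent to a tumor, and 14 tumors, 2 from each mouse. The labels call the 14-week controls WT whereas the methods describe transgenic strains, and which they were was not settled. For TRE-MET sample 1 the title gives 6 weeks and the age field 14, and it was kept with the 6-week livers. Whether the mouse Met probe sets read the human transcript is not known, so neither the transgene nor the cells that expressed it were checked here.

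In the quiescent state stellate cells hold retinyl esters, which lecithin retinol acyltransferase (Lrat) makes, and they carry reelin (Reln) and desmin (Des). After injury they turn into myofibroblasts: PDGF, through its beta receptor Pdgfrb, drives them to divide, TGF-beta drives them to lay down matrix, and smooth muscle actin (Acta2) fills their stress fibres while the vitamin A store is lost. Decorin (Dcn), lumican (Lum) and biglycan (Bgn) are small leucine-rich proteoglycans of the collagen matrix, decorin also binding TGF-beta and MET, and Ecm1 is a secreted matrix protein known to restrain latent TGF-beta in mouse liver. Portal fibroblasts and vascular smooth muscle share several of these genes. In bulk liver RNA, fewer stellate cells and less RNA per cell cannot be told apart.

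Promoters are shown for the quiescence genes Lrat and Reln, which moved in opposite directions in tumors, and for the activation gene Acta2. Each runs from 250 bases before to 50 after the RefSeq start site (GRCm38.p6, minus strand, written 5′ to 3′ along the gene), and capitals mark CArG boxes, the element of serum response factor in smooth muscle genes. The box was searched with at most 1 base other than A or T in its core of 6, and as its ends mirror each other a match on one strand is a match on the other.
Acta2 (chr19:34255324-34255623): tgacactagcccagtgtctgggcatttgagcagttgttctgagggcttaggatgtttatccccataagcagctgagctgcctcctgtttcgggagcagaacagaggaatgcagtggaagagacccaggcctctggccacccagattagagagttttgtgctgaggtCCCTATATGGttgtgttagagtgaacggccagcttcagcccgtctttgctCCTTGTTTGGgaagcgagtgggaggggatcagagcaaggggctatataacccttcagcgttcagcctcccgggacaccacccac
Lrat (chr3:82903925-82904224): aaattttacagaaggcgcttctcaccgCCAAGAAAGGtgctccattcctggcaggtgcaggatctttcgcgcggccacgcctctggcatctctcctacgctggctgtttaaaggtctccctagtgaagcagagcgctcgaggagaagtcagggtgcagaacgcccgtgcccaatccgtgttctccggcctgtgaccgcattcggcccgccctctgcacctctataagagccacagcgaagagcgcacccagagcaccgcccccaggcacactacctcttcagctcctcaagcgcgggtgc
Reln (chr5:22344656-22344955): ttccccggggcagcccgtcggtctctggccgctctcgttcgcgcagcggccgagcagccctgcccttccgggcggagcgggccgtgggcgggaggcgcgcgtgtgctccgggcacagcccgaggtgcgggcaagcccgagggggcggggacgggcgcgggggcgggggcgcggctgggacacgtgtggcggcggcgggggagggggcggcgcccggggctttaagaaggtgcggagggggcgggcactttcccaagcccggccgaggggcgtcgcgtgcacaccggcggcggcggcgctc
Acta2 held 2 boxes, with first bases at -84 and -34 from the start site, and Lrat held 1 at -223. The windows of Reln, Ecm1, Des and Bgn held 0. The promoter table held these 6 of the 9 members. Of all 32851 promoters listed there 9.98% held at least 1 box and 0.822% at least 2. The Reln window was 80.7% G or C, a share reached by 0.825% of promoters, whose median was 52.7%. Such matches describe the letters of these windows only.

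The library named tumor 1b stood apart from the other 13 tumors. Its log2 intensity of Acta2 was 0.90, where theirs lay between -5.17 and -3.30, and that of Des -0.17, where theirs lay between -3.08 and -2.22. It was also above all of them for Myh11 of smooth muscle (0.94 against at most -1.90), Krt19 of bile ducts (1.41 against at most 0.085), Msln of mesothelium (-0.97 against at most -3.12) and S100a8 of neutrophils (2.14 against at most -1.20). Not every marker of these cells stood apart. Eln of smooth muscle and portal fibroblasts (1.23) and Epcam (-2.49) and Sox9 (-2.79) of bile ducts lay within the range of the other tumors. So did Cd79a of lymphocytes (-4.09), and Cd3e (-2.05) lay below all of them. Tumor results of the 9 genes that rest on tumor 1b are given with and without it. Differences of single genes in other lists include it. Both tumors of a mouse were averaged, so every group had 7 values. A gene is said to rise or fall where limma gave an adjusted p under 0.05 (Benjamini-Hochberg over all 43681 probe sets), and differences are log2, first group minus second, ± SE. Groups of the same mice were fitted without pairing, and the counts of mice given beside them only describe direction.

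**Figure D1:**
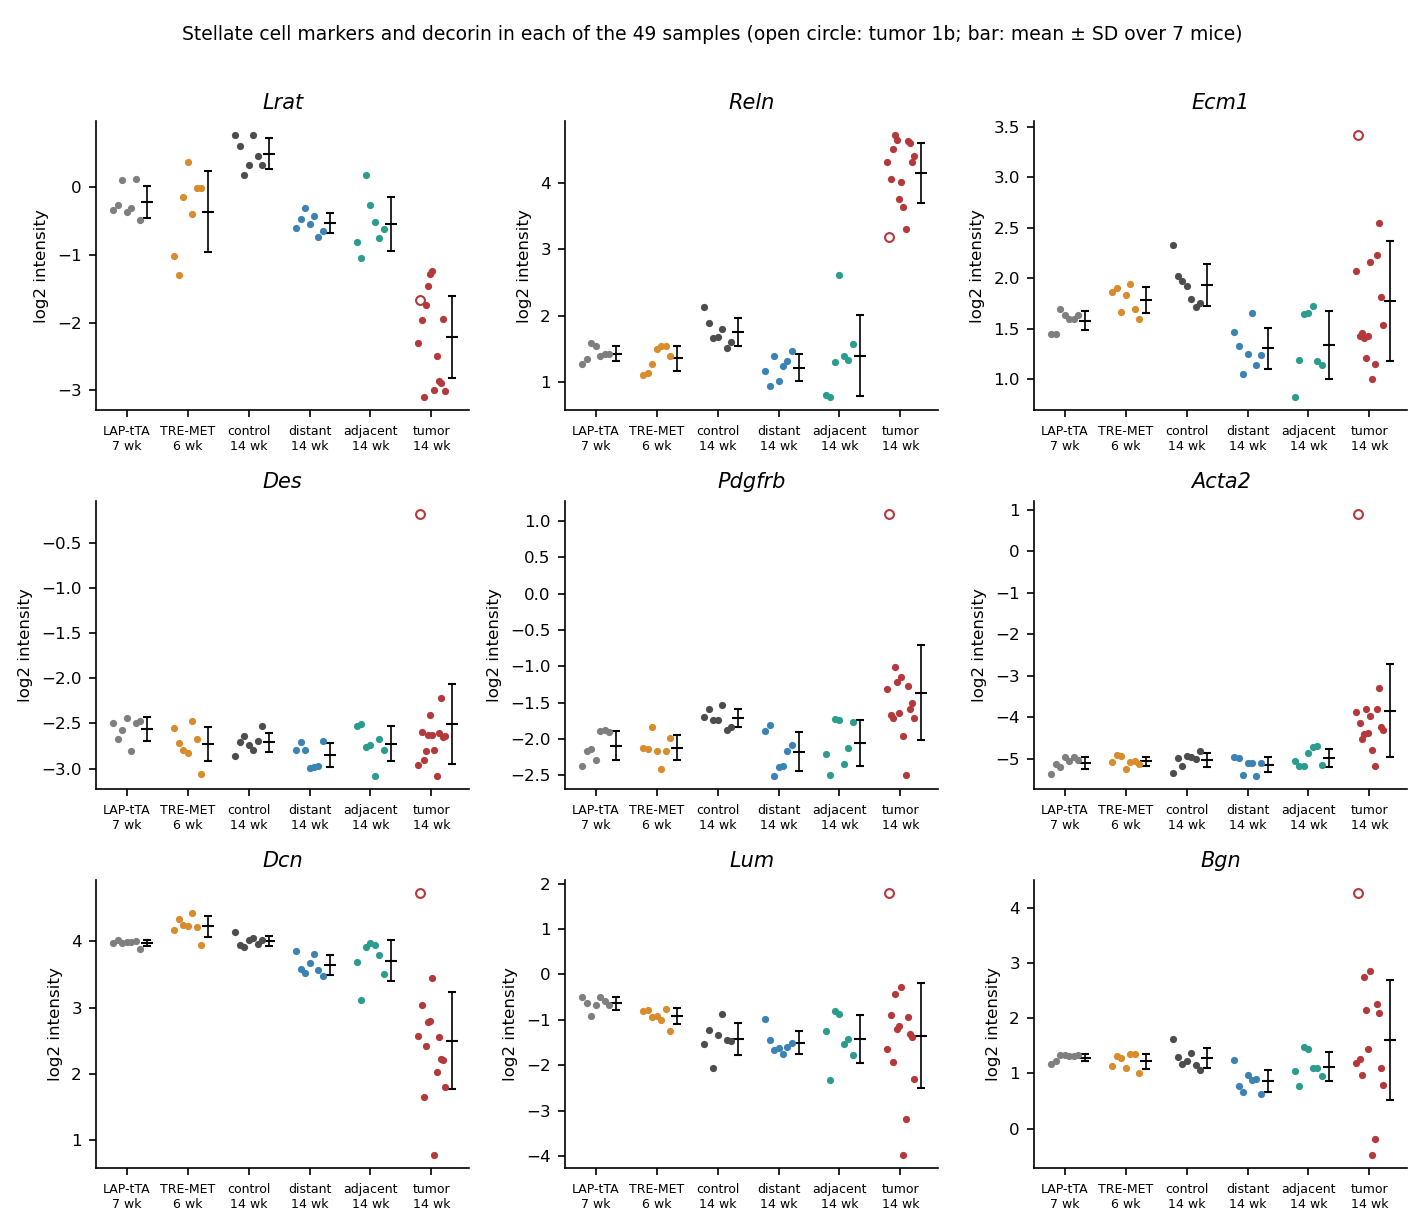
Log2 intensity (y axis) of the 9 genes in each of the 49 samples, by group (x axis). Points are samples, bars the mean ± SD over 7 mice (both tumors of a mouse averaged), and the open circle is tumor 1b. For Reln all 14 tumors lay above every control liver, and for Lrat all 14 lay below.

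Lrat, the enzyme that esterifies retinol, was the member that fell furthest in tumors. Its lowest, median and highest log2 intensities were 0.18, 0.47 and 0.78 in control liver, -0.74, -0.54 and -0.31 in distant liver, -1.04, -0.62 and 0.18 in adjacent liver and -3.09, -2.13 and -1.24 in the 14 tumors. All 14 tumors and all 7 distant livers were below every control, while adjacent sample 3 just reached the lowest control. In tumors Lrat was 6.53-fold lower than in control liver (-2.71 ± 0.22, adjusted p = 1.05e-07), 3.20-fold lower than in distant liver of the same mice (-1.68 ± 0.21, adjusted p = 2.01e-05, 7 of 7 mice) and 3.17-fold lower than in adjacent liver (-1.67 ± 0.24, adjusted p = 0.000133, 7 of 7 mice). Liver outside the tumors was also lower than control liver, by 2.04-fold at the distant site (-1.03 ± 0.099, adjusted p = 5.57e-06) and 2.06-fold at the adjacent site (-1.04 ± 0.15, adjusted p = 0.000461).

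Reln, which encodes the secreted glycoprotein reelin, rose in tumors. Its lowest, median and highest values were 1.52, 1.69 and 2.14 in control liver, 0.94, 1.24 and 1.48 in distant liver, 0.78, 1.33 and 2.61 in adjacent liver and 3.19, 4.31 and 4.73 in the 14 tumors. Every tumor was above every liver of the other 5 groups, tumor 1b being the lowest of the tumors. Reln was 5.25-fold higher in tumors than in control liver (2.39 ± 0.17, adjusted p = 2.47e-08), 7.61-fold higher than in distant liver (2.93 ± 0.17, adjusted p = 4.72e-09, 7 of 7 mice) and 6.73-fold higher than in adjacent liver (2.75 ± 0.25, adjusted p = 2.71e-06, 7 of 7 mice). Both other probe sets of Reln rose as well against control liver, AK047608_a_at by 2.57 ± 0.25, adjusted p = 7.55e-07, and AK082689_a_at by 1.61 ± 0.27, adjusted p = 0.000224.

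Distant liver had less Reln than control liver, with no overlap between the groups (-0.54 ± 0.10, adjusted p = 0.00399). Of the other probe sets AK047608_a_at passed too (-0.44 ± 0.12, adjusted p = 0.0362) and AK082689_a_at did not (-0.14 ± 0.12, adjusted p = 0.615). With the sample number as a block, which joins different mice here, the limma adjusted p of AK047608_a_at was 0.0976. Adjacent liver differed from control liver by -0.36 ± 0.21, adjusted p = 0.332. Adjacent sample 4, at 2.61, was the highest liver outside the tumors, the next adjacent liver being at 1.57, and without it the difference passed (-0.56, adjusted p = 0.0195).

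Ecm1, the matrix protein that restrains TGF-beta, was lower in the liver around tumors. It measured 1.72, 1.92 and 2.33 (lowest, median, highest) in control liver, 1.05, 1.25 and 1.66 in distant liver, 0.83, 1.19 and 1.72 in adjacent liver and 1.01, 1.50 and 3.42 in the 14 tumors. All distant livers were below every control liver, and 8 tumors lay below and 2 above all controls. Against control liver Ecm1 fell in distant liver (-0.62 ± 0.10, adjusted p = 0.00126) and adjacent liver (-0.59 ± 0.13, adjusted p = 0.0119), and the tumor difference was -0.15 ± 0.21, adjusted p = 0.620 (-0.25 without tumor 1b, adjusted p = 0.267).

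Desmin, the intermediate filament of stellate cells, was called in none of the 9 comparisons. Its level was -2.71 ± 0.11 (SD over 7 mice) in control liver and -2.51 ± 0.45 in tumors, and their difference of 0.20 ± 0.16 (adjusted p = 0.355) became 0.0033 without tumor 1b. Pdgfrb, the PDGF receptor, measured -1.88, -1.74 and -1.54 in control liver, -2.51, -2.16 and -1.81 in distant liver, -2.49, -2.12 and -1.72 in adjacent liver and -2.50, -1.54 and 1.10 in the 14 tumors. Distant and control livers overlapped, and 7 tumors lay above and 2 below all controls. Pdgfrb fell in distant against control liver (-0.46 ± 0.10, adjusted p = 0.0142) and was higher in tumors than in distant liver (0.81 ± 0.24, adjusted p = 0.0178, 7 of 7 mice) and adjacent liver (0.69 ± 0.24, adjusted p = 0.0372, 7 of 7 mice). These tumor calls were lost without mouse 3 or 4 against distant liver (adjusted p up to 0.0732) and without mouse 1, 2, 3 or 6 against adjacent liver (up to 0.0849) or with the 14 tumors as samples and the mouse as a random block (adjusted p = 0.0593). Without tumor 1b both were kept, at 0.63 against distant (adjusted p = 0.00384) and 0.52 against adjacent liver (adjusted p = 0.0188). Tumors and control liver differed by 0.35 ± 0.22, adjusted p = 0.256. That difference was 0.18 without tumor 1b (adjusted p = 0.320), and without the tumors of mouse 5 as well it was 0.29 and passed (adjusted p = 0.0193).

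Acta2, the smooth muscle actin of activated stellate cells, was called only in comparisons with tumors, where it rose. It measured -5.35, -4.99 and -4.82 in control liver, -5.42, -5.10 and -4.96 in distant liver, -5.18, -5.06 and -4.68 in adjacent liver and -5.17, -4.19 and 0.90 in the 14 tumors. All tumors but 5b were above every control liver. Over the 49 samples the mean of its probe set was at or above that of 16.7% of probe sets, and whether it stood above background in the livers is not known, so no fold is given. On the log2 scale Acta2 was higher in tumors than in control liver by 1.19 ± 0.37, adjusted p = 0.0239, than in distant liver by 1.31 ± 0.37, adjusted p = 0.0163 (7 of 7 mice) and than in adjacent liver by 1.13 ± 0.38, adjusted p = 0.0295 (6 of 7 mice). Without tumor 1b the difference was 0.85 from control (adjusted p = 0.000454), 0.96 from distant (adjusted p = 0.000173) and 0.79 from adjacent liver (adjusted p = 0.00154). With the 14 tumors as samples and the mouse as a random block the call was lost against control (adjusted p = 0.0922), distant (adjusted p = 0.0504) and adjacent liver (adjusted p = 0.0749). Against control liver it was also lost without control samples 5 and 7, which were high in pancreas genes (adjusted p = 0.0527). Against distant liver it was lost without mouse 6 (adjusted p = 0.0600), and against adjacent liver without mouse 2, 3 or 6 (adjusted p up to 0.0688).

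Decorin, the proteoglycan that binds TGF-beta and MET, fell in tumors. Dcn measured 3.92, 4.02 and 4.13 (lowest, median, highest) in control liver, 3.47, 3.58 and 3.86 in distant liver, 3.11, 3.79 and 3.98 in adjacent liver and 0.78, 2.49 and 4.73 in the 14 tumors. All tumors but 1b were below every control liver, and 1b was above them. Dcn was 2.83-fold lower in tumors than in control liver (-1.50 ± 0.24, adjusted p = 0.000177), 2.20-fold lower than in distant liver (-1.14 ± 0.25, adjusted p = 0.00269, 7 of 7 mice) and 2.30-fold lower than in adjacent liver (-1.20 ± 0.26, adjusted p = 0.00299, 7 of 7 mice). Without tumor 1b the difference from control liver was -1.65 (adjusted p = 1.44e-06). Distant livers were all below the control livers (-0.36 ± 0.070, adjusted p = 0.00469), and adjacent liver differed by -0.30 ± 0.11, adjusted p = 0.121.

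Lumican and biglycan, the other collagen-binding proteoglycans, were not called in tumors. Lum, whose gene is next to Dcn in the RefSeq order, measured -2.05, -1.45 and -0.87 in control liver and -3.98, -1.26 and 1.79 in the 14 tumors, which reached past the controls on both sides. Its tumor difference from control liver was 0.071 ± 0.40, adjusted p = 0.915, and it turned to -0.17 without tumor 1b (adjusted p = 0.731). Bgn measured 1.06, 1.23 and 1.62 in control liver, 0.64, 0.87 and 1.24 in distant liver and -0.48, 1.36 and 4.27 in the 14 tumors, of which 6 lay above and 4 below all controls. Its tumor difference was 0.33 ± 0.36, adjusted p = 0.526, and 0.11 without tumor 1b (adjusted p = 0.824). Bgn fell in distant against control liver (-0.41 ± 0.098, adjusted p = 0.0204), a call lost without distant sample 3 (adjusted p = 0.0504). Whether Dcn changed more than Lum or Bgn was not tested.

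**Figure D2:**
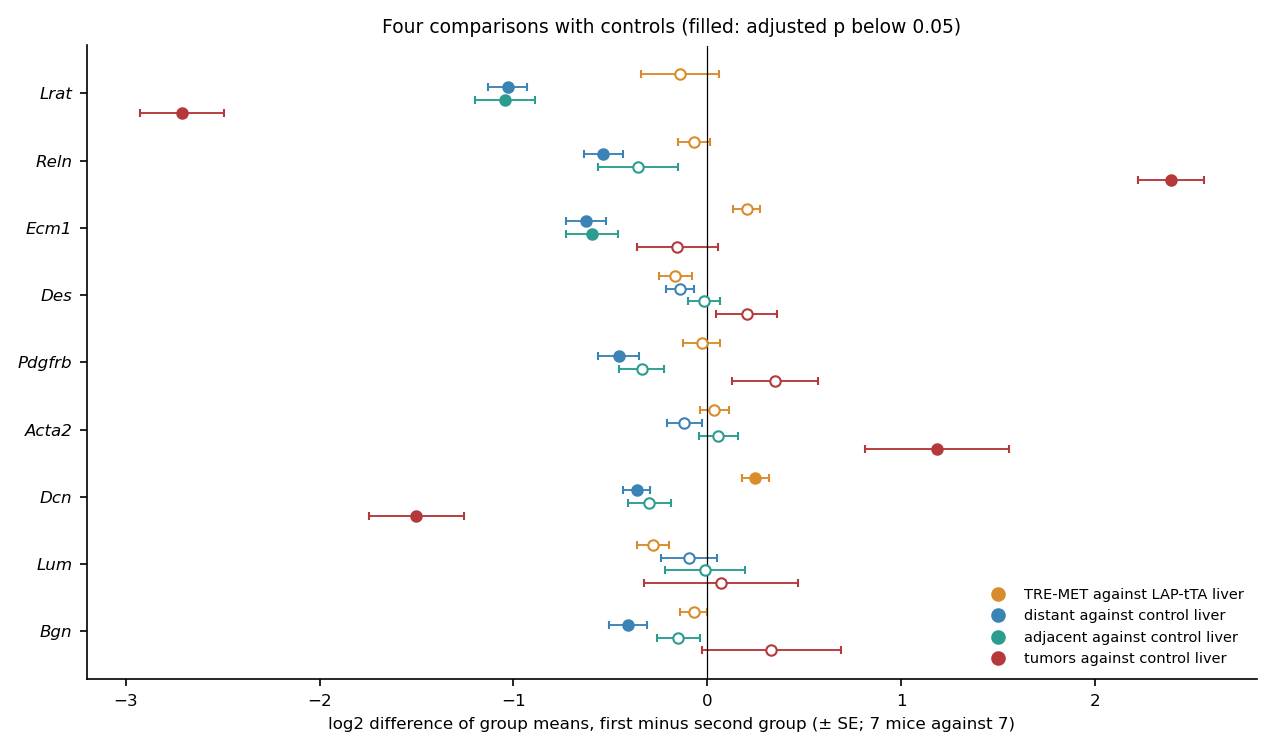
Log2 difference of group means (x axis, first minus second group, ± SE, 7 mice against 7) for each gene (y axis) in 4 comparisons. Filled points had an adjusted p under 0.05. Lrat and Dcn fell and Reln and Acta2 rose in tumors, while in distant liver every called member was lower.

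Counted together, 2 of the 9 genes rose in tumors against control liver (Reln and Acta2), where 13.4% of all probe sets did, and 2 fell (Lrat and Dcn), where 15.8% did. Against distant liver 3 rose (Reln, Acta2 and Pdgfrb; 13.0% of probe sets) and 2 fell (Lrat and Dcn; 14.0%). The same 5 genes were called, in the same directions, against adjacent liver, where 12.8% of probe sets rose and 23.5% fell. That split was 5578 higher and 10249 lower, and it turned to 7191 higher and 3821 lower with sample medians set equal. In distant against control liver 6 of 9 fell (Lrat, Reln, Ecm1, Pdgfrb, Dcn and Bgn) and 0 rose, beside 2.60% and 2.47% of probe sets. Of these 6, Lrat and Ecm1 also passed in a fit of all 6 groups together. In adjacent against control liver 2 fell (Lrat and Ecm1) and 0 rose, beside 3.15% and 3.85%. Equal sample medians moved that split of probe sets from 1680 higher and 1378 lower to 911 higher and 2125 lower.

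Distant and adjacent liver of the same 7 mice were separated by no member. Of all probe sets 0% were called by limma, with 9.73% at an unadjusted p under 0.05, and 3 probe sets were called in a fit of all 6 groups. The member with the smallest p was Bgn, 0.26 ± 0.11 higher in adjacent liver (adjusted p = 0.478). With the level of Xist, an RNA of the inactive X chromosome that varied within groups, as a covariate, Dcn passed in adjacent against control liver (-0.38, adjusted p = 0.0212), and the 6 calls of distant liver were kept.

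Markers of other cells moved beside these results. Of all probe sets 2.60% were lower and 2.47% higher in distant against control liver, and 3.15% and 3.85% in adjacent against control liver. In tumors against control liver 15.8% were lower and 13.4% higher. In distant liver the cholangiocyte list, 6 of 6 genes measured, summed to an intensity of 1.12 to 1.48, below the 2.50 to 2.90 of control liver, with Spp1 its 1 called gene (-1.31, adjusted p = 3.26e-08). These linear sums mostly followed Spp1. Its log2 intensity lay between -0.63 and 1.24 in the livers outside tumors, where no other gene of the list was above -1.40. Of 5 measured neutrophil and lymphocyte markers the same 2 rose in distant and adjacent liver, the neutrophil proteins S100a8 (1.28, adjusted p = 0.00326 and 1.08, adjusted p = 0.000830) and S100a9 (1.11, adjusted p = 0.00197 and 0.84, adjusted p = 0.00455). In tumors 5 of the 8 smooth muscle and portal fibroblast genes rose, with a sum of 2.28 to 6.69 in 13 tumors, 21.9 in tumor 1b and 1.18 to 1.61 in control liver. In the 13 tumors Eln (log2 -0.23 to 1.88) and Cd34 (-0.62 to 0.36) weighed most in this sum. Myh11, Cnn1 and Smtn reached at most -1.90, -3.04 and -1.79 there. Kupffer cell genes fell in tumors (5 of 7), with sums of 4.94 to 20.6 in 13 tumors, 22.2 in tumor 1b and 14.7 to 21.5 in control liver. Genes of sinusoidal endothelium fell as well (5 of 8, with 1 higher), with sums of 6.74 to 15.4 in 13 tumors, all below the 18.7 to 24.7 of control liver, and 22.1 in tumor 1b. Hepatocyte genes fell (5 of 8), with sums of 209 to 370.4 in tumors, tumor 1b being the lowest, and 383 to 422 in control liver. Mesothelial genes were called in 0 of 4 (2 lower without tumor 1b). No marker was at 0 in any sample. The part of these cells in the members' differences was not tested.

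The tumors of different mice were less alike than the control livers. For Dcn both tumors of a mouse lay 0.33 to 2.16 apart on the log2 scale (median 0.65), and the SD between mice was 0.73 for tumors and 0.073 for control livers. Mouse 1 held the widest pair for 8 of the 9 genes, and mouse 2 for Lrat (1.13). For Acta2 the pair of mouse 1 was 4.79 apart and the next 0.60, and for Des 2.79 and 0.39.

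Mouse 5 often held the low end of the tumors. Tumor 5a had the lowest Dcn (0.78), Lum (-3.98), Bgn (-0.48) and Ecm1 (1.01) of the 14, and tumor 5b the lowest Acta2 (-5.17), Pdgfrb (-2.50) and Des (-3.08). Without both tumors of mouse 5, Bgn (1.06, adjusted p = 0.00793) and Ecm1 (0.65, adjusted p = 0.0284) were also higher in tumors than in distant liver. For Reln its tumors, at 3.64 and 3.30, were above every liver but below all other tumors except 1b.

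**Figure D3:**
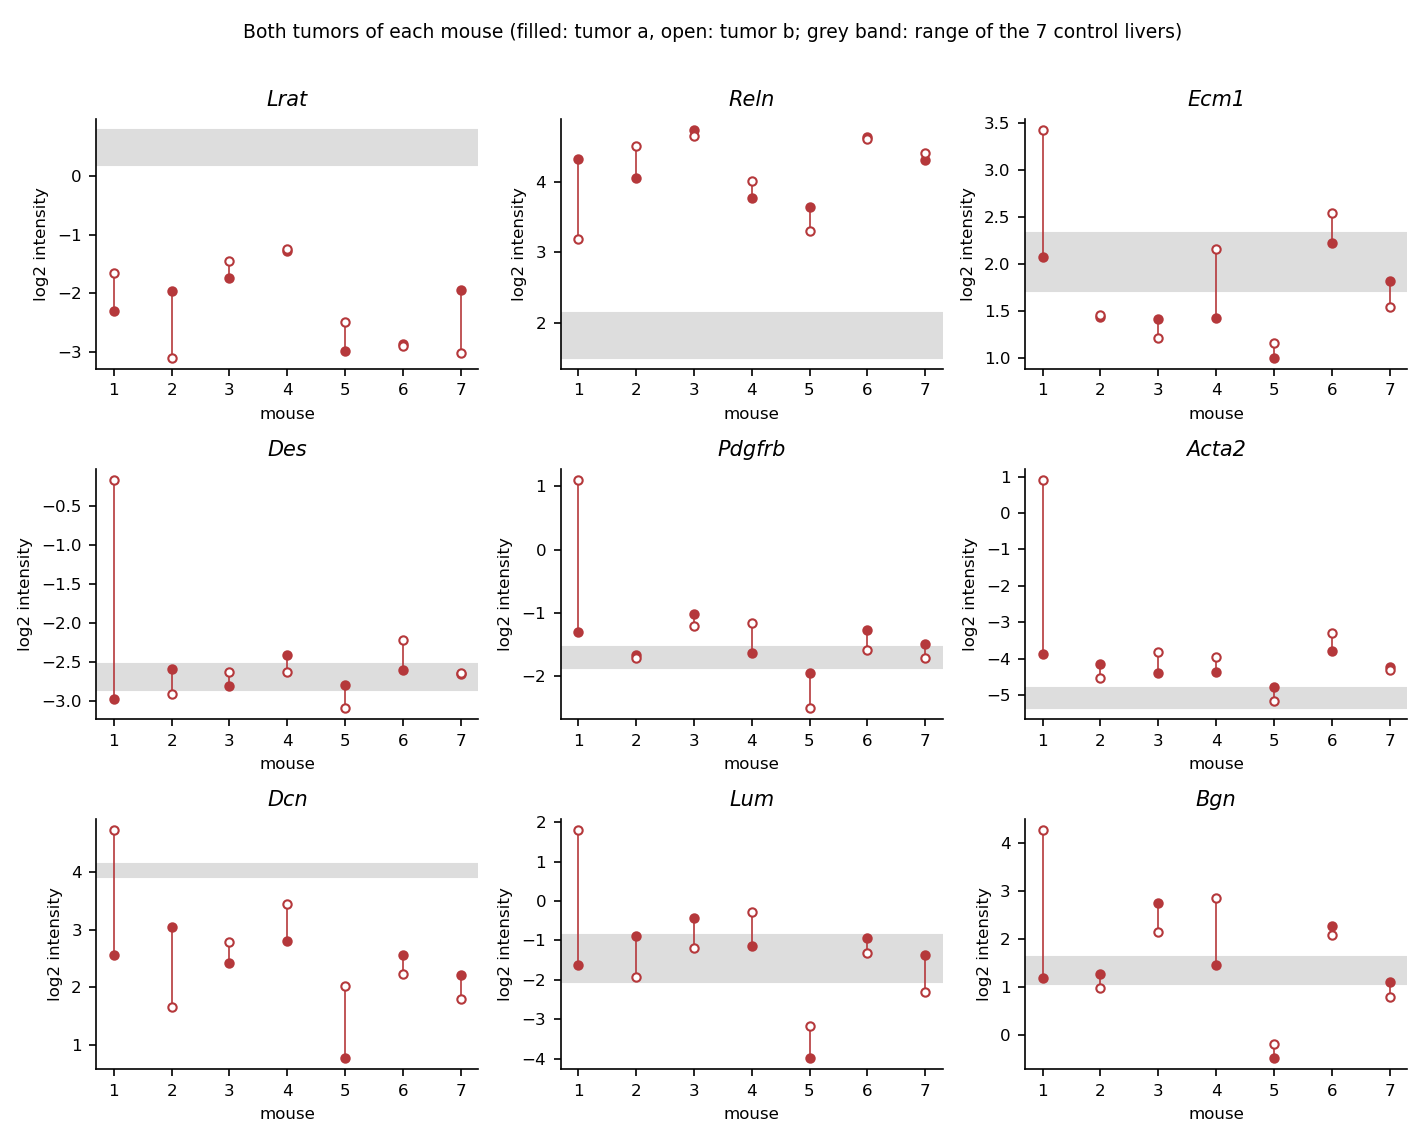
Log2 intensity (y axis) of both tumors of each of the 7 mice (x axis; filled, tumor a; open, tumor b), with the range of the 7 control livers as a grey band. Tumor 1b is the highest tumor for 7 of the 9 genes, lies among the others for Lrat and is the lowest for Reln.

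At 6 to 7 weeks Dcn was the 1 member called between TRE-MET and LAP-tTA livers. It measured 3.93, 4.23 and 4.42 (lowest, median, highest) in TRE-MET and 3.88, 3.98 and 4.02 in LAP-tTA livers. The groups overlapped only through TRE-MET sample 7, at 3.93. Dcn was 1.19-fold higher (0.25 ± 0.070, adjusted p = 0.0377), and 1 member higher and 0 lower stood beside 3.26% and 3.60% of all probe sets. The call was lost on leaving out any 1 of 13 of the 14 mice (adjusted p up to 0.0867), TRE-MET sample 7 being the exception (adjusted p = 0.00591), and with sample medians set equal (adjusted p = 0.0613).

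Neutrophil and lymphocyte markers, 5 of 6 measured, summed to 1.25 to 9.21 in TRE-MET and 1.24 to 1.71 in LAP-tTA livers. TRE-MET samples 1, 2, 3 and 5 had been set apart from 4, 6 and 7 in earlier results of these data. Without the first set the Dcn difference was 0.15 (adjusted p = 0.439), and without the second 0.32 (adjusted p = 0.00596). The part of inflammatory cells was not tested. Lum differed by -0.28 ± 0.085, adjusted p = 0.0536. With sample medians set equal, where Dcn was lost, Lum was called lower (-0.30, adjusted p = 0.0449). It was also called with 1 probe set per gene (adjusted p = 0.0395) and with only probe sets above the median level (adjusted p = 0.0326). Lrat varied among TRE-MET livers from -1.30 in sample 2 to 0.38 in sample 4, beside -0.49, -0.30 and 0.13 in LAP-tTA livers.

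The contrast of MET with control liver differed between both ages for 4 members, where 7.73% of probe sets were called. For Dcn it was 0.25 at 6 to 7 weeks and -0.36 at 14 weeks in distant liver (difference 0.61 ± 0.095, adjusted p = 3.19e-05 by the limma interaction). Ecm1 went from 0.20 to -0.62 (difference 0.83 ± 0.13, adjusted p = 2.24e-05). For Lrat the contrasts were -0.14 and -1.03 (difference 0.89 ± 0.24, adjusted p = 0.0176) and for Reln -0.070 and -0.54 (difference 0.47 ± 0.13, adjusted p = 0.0250). The last 2 calls were lost without TRE-MET samples 4, 6 and 7 (adjusted p = 0.127 and 0.116). Age, the genotype labels and the presence of tumors changed together here and cannot be told apart. The labels changed for the controls and also for the MET mice, from Tre-c-Met to LAP-tTA-Tre-c-Met.

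Older and younger livers also differed, again with the genotype labels changing beside age. Lum, at -0.92, -0.63 and -0.49 in LAP-tTA and -1.25, -0.91 and -0.76 in TRE-MET livers, was lower at 14 weeks in control against LAP-tTA liver (-0.78 ± 0.13, adjusted p = 0.000478) and in distant against TRE-MET liver (-0.59 ± 0.11, adjusted p = 0.00141). In control against LAP-tTA liver 4 members were higher, Lrat (0.72 ± 0.11, adjusted p = 0.000334), Pdgfrb (0.37 ± 0.088, adjusted p = 0.00991), Ecm1 (0.35 ± 0.086, adjusted p = 0.0136) and Reln (0.33 ± 0.088, adjusted p = 0.0219), beside 5.24% of probe sets, and Lum alone was lower, beside 4.18%. With the sample number as a block, which joins different mice here, the call of Reln was lost (adjusted p = 0.0648). In distant against TRE-MET liver 4 members were lower, Dcn (-0.58 ± 0.082, adjusted p = 0.000165), Lum, Ecm1 (-0.48 ± 0.090, adjusted p = 0.00188) and Bgn (-0.35 ± 0.091, adjusted p = 0.0161), beside 8.29% of probe sets, and 0 were higher, beside 5.97%. Equal sample medians moved the first split of probe sets from 2291 higher and 1826 lower to 2848 higher and 1059 lower and the second from 2609 higher and 3622 lower to 3756 higher and 1442 lower, and ended the call of Bgn (adjusted p = 0.0538). Without TRE-MET samples 1, 2, 3 and 5 the calls of Ecm1 (adjusted p = 0.0522) and Bgn (adjusted p = 0.175) in distant against TRE-MET liver were lost, and Lrat was called lower (-0.65, adjusted p = 0.00325). In a fit of all 6 groups Lrat alone was called in control against LAP-tTA liver, and Dcn and Ecm1 in distant against TRE-MET liver.

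Markers of other cells moved in these comparisons too. In control against LAP-tTA liver 6 of 7 Kupffer cell genes were higher (median 0.55, with sums of 14.7 to 21.5 against 10.6 to 14.6). So were 4 of 8 genes of sinusoidal endothelium (1 lower), 2 of 6 of cholangiocytes and 3 of 5 of neutrophils and lymphocytes. The last included the leukocyte antigen Ptprc (0.78, adjusted p = 0.000308). Hepatocyte genes had 1 of 8 higher and 1 lower, and 1 of 8 smooth muscle and portal fibroblast genes was lower. Of all probe sets 5.24% were higher and 4.18% lower. In distant against TRE-MET liver 2 of 7 Kupffer cell genes and 1 of 8 of sinusoidal endothelium were higher. Of the 5 neutrophil and lymphocyte markers 1 was higher, Ptprc (0.85, adjusted p = 0.00144). Lower were 2 of 6 cholangiocyte genes, 2 of 8 of smooth muscle and portal fibroblasts and 1 of 4 of mesothelium. Hepatocyte genes had 1 of 8 higher and 1 lower. Of all probe sets 5.97% were higher and 8.29% lower. What part these cells had in the members' differences was not tested.

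Ordered by group mean, most neighbouring groups were not separated. Of 45 neighbour pairs, 5 for each gene, 3 differed by two-sided exact permutation tests with Benjamini-Hochberg adjustment over the 45. They were control above LAP-tTA liver for Lrat (adjusted p = 0.0131), tumors above control liver for Reln (adjusted p = 0.0131) and control above LAP-tTA liver for Reln (adjusted p = 0.0350). Lrat ran from control through LAP-tTA, TRE-MET, distant and adjacent liver down to tumors, and Dcn from TRE-MET through control, LAP-tTA, adjacent and distant liver down to tumors. Between groups of the same mice 7 sign changes allow no exact p under 0.0156, which Dcn reached between distant liver and tumors (adjusted p = 0.0879) and Lrat between adjacent liver and tumors (adjusted p = 0.0879). As the smallest possible p did not pass after adjustment, these tests could not separate groups of the same mice and do not show them to be alike. The neighbours were also set by the order of the means in these same data.

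Other genes of the stellate programme were counted list by list, beside all probe sets. Of 18 measured genes of quiescent stellate cells, 10 fell and 1 rose in tumors against control liver, where 15.8% and 13.4% of all probe sets did, with a median difference of -0.50 beside -0.053 for all probe sets. Without tumor 1b 11 fell and 1 rose (median -0.61), beside 7202 and 6024 of the 43681 probe sets. The lectin Colec10 fell (-3.80, adjusted p = 3.59e-09), with the peptide hormone receptors Vipr1 (-1.63, adjusted p = 1.37e-08) and Pth1r (-1.41, adjusted p = 2.90e-07) and the secreted Angptl6 (-1.44, adjusted p = 4.34e-08). In distant against control liver 6 of the 18 fell and 1 rose (median -0.24; 2.60% and 2.47% of probe sets), among them the transcription factor Tcf21 (-0.52, adjusted p = 0.000701) and the matrix protein Prelp (-0.64, adjusted p = 0.000741). At 6 to 7 weeks 4 rose and 2 fell (median 0.0098), beside 3.26% and 3.60% of probe sets. In TRE-MET liver Colec10, which fell in tumors, was among those higher (0.41, adjusted p = 0.00115), and the endothelin receptor Ednrb was lower (-0.99, adjusted p = 1.12e-06).

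Of 23 measured genes of activated stellate cells and myofibroblasts, 17 rose and 0 fell in tumors against control liver, beside 13.4% and 15.8% of probe sets, with a median of 1.29, and 18 rose with a median of 0.94 without tumor 1b. They included the matricellular Ccn2 (3.46, adjusted p = 1.50e-05) and Sparc (1.82, adjusted p = 1.81e-05), the calcium-binding S100a6 (3.11, adjusted p = 9.30e-05) and collagen I, Col1a1 (3.52, adjusted p = 0.000157). These single-gene differences include tumor 1b, where intensities of the list summed to 617, beside at most 125 in the other tumors. In distant liver 5 of the 23 fell and 1 rose (median -0.21; 2.60% and 2.47% of probe sets), among them the surface protein Thy1 (-0.62, adjusted p = 0.000508) and the protease inhibitor Timp2 (-0.58, adjusted p = 0.00131). Adjacent liver had 3 higher and 2 lower, beside 3.85% and 3.15% of probe sets, Ccn2 rising there as well (1.78, adjusted p = 0.000579).

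Of the 19 TGF-beta and PDGF genes 13 rose and 1 fell in tumors against control liver (median 0.50; 13.4% and 15.8% of probe sets), among them the ligands Pdgfa (1.42, adjusted p = 1.29e-08) and Pdgfc (1.86, adjusted p = 0.000167), the receptor Tgfbr2 (1.74, adjusted p = 2.95e-06) and its signal carrier Smad3 (0.77, adjusted p = 2.50e-05). Without tumor 1b 12 rose and 2 fell, beside 6024 and 7202 of the 43681 probe sets. In distant liver 3 fell, with the PDGF receptor Pdgfra (-0.64, adjusted p = 0.00377), and 1 rose, Pdgfa (0.47, adjusted p = 0.0396), beside 2.60% and 2.47% of probe sets. Of 17 measured genes of retinoid handling, 3 rose and 6 fell in tumors (median -0.12), beside the same 13.4% and 15.8% of probe sets, and the share that rose was near theirs. Leaving out tumor 1b, 3 rose and 5 fell, beside the same 6024 and 7202 probe sets. The carotene-cleaving Bco1 (2.73, adjusted p = 8.77e-09), the retinol-binding Rbp7 (1.50, adjusted p = 2.23e-07) and the retinoic acid-forming Aldh1a2 (3.51, adjusted p = 2.80e-06) rose, and the retinal reductase Dhrs3 fell (-0.84, adjusted p = 1.17e-05). Among the 14 other small leucine-rich proteoglycans Aspn rose (1.39, adjusted p = 0.00196), Omd fell (-0.93, adjusted p = 0.00120) and the median was -0.046. The 1 gene called in each direction was a smaller share than that of all probe sets, and without tumor 1b 2 rose and 3 fell. Between adjacent and distant liver 0 genes of any of these lists were called.

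**Figure D4:**
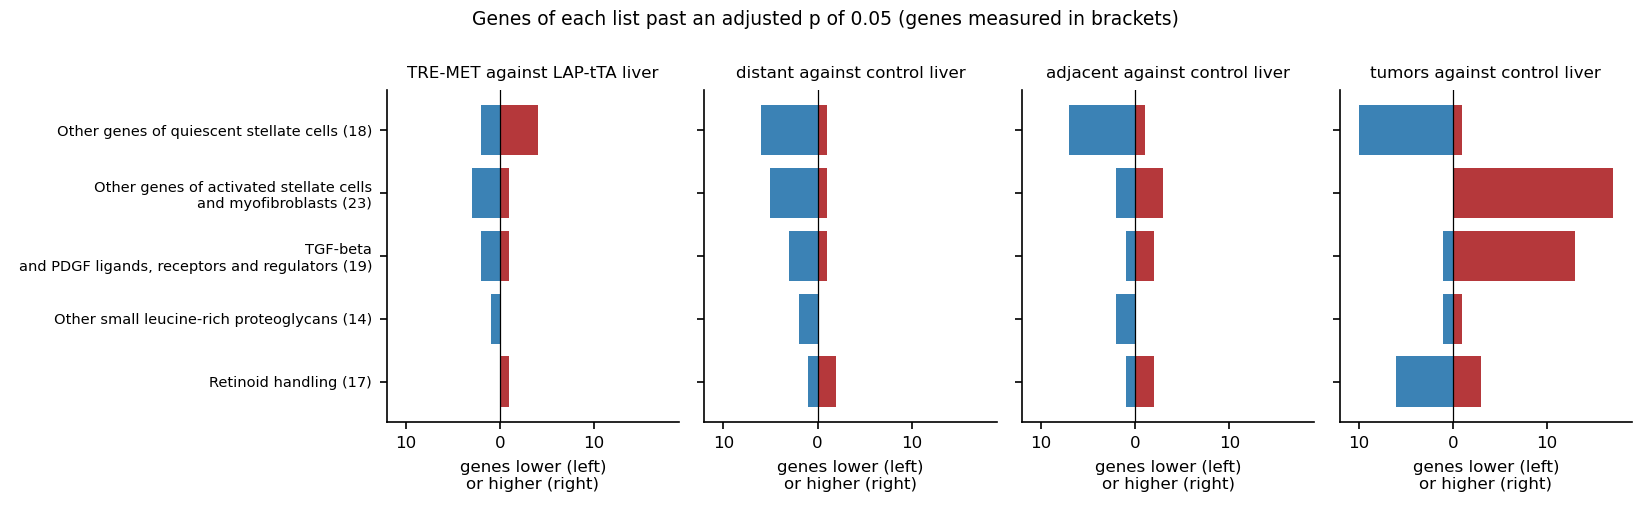
Number of genes of each list (y axis, genes measured in brackets) that were lower (left) or higher (right) at an adjusted p under 0.05 in 4 comparisons. In tumors against control liver the activated list had 17 higher and 0 lower of 23, and the quiescent list 10 lower and 1 higher of 18.

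Deviations from the group means over the 42 mouse-level samples showed which named genes went with a member, given as Pearson r with no test. Dcn was closest to Cygb, the globin of stellate cells (0.92), then Cst3 (0.89), Mgl1 (0.89), Pip4k2a (0.88) and Bcl2a1c (0.88). Acta2 was closest to Col5a1 (0.92), Tagln (0.89), Mrc2 (0.89), Vgll3 (0.89) and Vcan (0.89). Without the tumors of mouse 1 these fell to between 0.48 and 0.70 for Acta2 and to between 0.81 and 0.87 for Dcn. Lrat had looser companions in Cd83 (0.67), Rarb (0.66), Mamdc2 (0.65), Mga (0.62) and Slmap (0.61). Points of the same mice, and of arrays normalized together, are not independent. For Dcn and Acta2 these r mostly describe the 7 tumor values. Their SD was 0.73 and 1.12, beside at most 0.31 and 0.22 in any other group.

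In human liver the study plotted DCN against CDKN2C, a cyclin-dependent kinase inhibitor, and the mouse pair was read within each group of 7 mice. In adjacent liver Pearson r was 0.63 (exact permutation p = 0.0369, adjusted over the 6 groups 0.221) and Spearman rho 0.86 (exact permutation p = 0.0238, adjusted 0.143), with r 0.65 without the 2 livers farthest from the median in Cdkn2c. In tumors r was 0.047 (exact permutation p = 0.928) and rho 0.36 (exact permutation p = 0.444). In the other 4 groups r ran from 0.10 in LAP-tTA to 0.58 in distant liver, and none of the 6 relations passed after adjustment. Leaving out 2 samples in the same way took r from 0.29 to 0.79 in control and from 0.58 to 0.42 in distant liver. It gave 0.15 in LAP-tTA liver, 0.19 in TRE-MET liver and -0.0022 in tumors.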

How the data were processed

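RNA of 49 FVB mouse liver and tumor samples was measured on a custom Affymetrix array. The deposited values are probe set intensities on a linear scale that the authors made by RMA normalization of all arrays together, from 0.0169 to 143.6 with a mean of 1. The sources used here do not state how RMA output reached that scale. Of 43681 probe sets 30342 had 1 gene symbol, 0 several and 13339 none, and 6202 older symbols were updated through RefSeq. Intensities were taken to log2 without a pseudocount or filter. Each comparison was fitted by limma 3.58.1 (R 4.3.3) on its own groups without a block, with Benjamini-Hochberg adjusted p-values over all 43681 probe sets. Tumors entered as the mean of each mouse's pair. The pairing of distant liver, adjacent liver and tumors by mouse was thus not used. The study's ANOVA compared LAP-tTA with TRE-MET livers, which were different mice. With the mouse as a block the same members were called between distant liver, adjacent liver and tumors. Exact permutation tests and correlations used scipy 1.17.1. On simulated data for TRE-MET against LAP-tTA liver (43681 probe sets, 200 changed) 73% of log2 changes of 0.5 and 100% of changes of 1 were recovered, and for tumors against control liver 71% and 96%.

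Distant liver, adjacent liver and tumors with the same number are from the same mouse; deviations from group means correlated at 0.36 to 0.60 between distant and adjacent liver, 0.12 to 0.38 between tumors and distant liver and 0.03 to 0.34 between tumors and adjacent liver. Other groups share numbers only. The highest correlation between 2 samples was 0.996, and none was a duplicate by its values. The labels do not say more on how samples within a group were drawn than that they are separate mice. Alternatives were a stricter threshold, a filter at the median level, quantile normalization, equal sample medians, a fit of all 6 groups, 1 probe set per gene, the block, the mouse as a random block for 14 tumors, leaving out each mouse, and the methods' test. The members, gene lists and tests were chosen with earlier results of these data known. Named genes are all 9 members, up to 4 genes of each list with the smallest p in a comparison, and the 5 genes most like Dcn, Lrat and Acta2. A few genes of the lists are not reported here.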

Additional observations from a re-analysis of the deposited data

Results flagged for a closer look

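For 5 of the 54 groups of 7 values (9 genes in 6 groups, tumors as the mean of each mouse) the end value stood farther from the rest than the limit of Dixon's test (a gap of 0.568 of the range) allows; chance gives about 1 such group in 20. LAP-tTA sample 7 was low for Dcn, at 3.88, the next being 3.97. LAP-tTA sample 3 was low for Lum, at -0.92, the next being -0.68. Distant sample 1 was high for Lum, at -0.99, the next being -1.44. The tumors of mouse 1 were high for Des, at -1.57, the next mouse being at -2.41, and for Acta2, at -1.49, the next being at -3.55, in both cases through tumor 1b.

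The log2 contrast of MET with control liver differed between 6 to 7 and 14 weeks by the limma interaction test in 4 members, by 0.61 for Dcn, 0.89 for Lrat, 0.47 for Reln and 0.83 for Ecm1, each higher at the younger age. The differences of Lrat and Reln were not called without TRE-MET samples 4, 6 and 7.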

How the results depend on the processing

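Alternatives that leave out tumor 1b, the tumors of mouse 5 or control samples 5 and 7, that add Xist, that leave out TRE-MET samples in the contrast of both ages, or that rescale the neighbour tests were chosen after seeing the data. Of the member values under all alternatives 1298 kept their direction and side of the threshold, 48 lost a call, 29 gained one and 47 changed sign, each of the last in a difference that was not called. The number of members called between TRE-MET and LAP-tTA liver, 1, became 0 at an adjusted p under 0.01, in a fit of all 6 groups and without TRE-MET samples 1, 2, 3 and 5. It became 2 with only probe sets above the median level or 1 probe set per gene (Lum added, lower) and without TRE-MET samples 4, 6 and 7 (Ecm1 added, higher). It was 3 by the methods' test at an unadjusted p under 0.01, and lay between 0 and 2 on leaving out single mice. Of all 43681 probe sets 1592 were called at an adjusted p under 0.01. The fit of all 6 groups called 1448 higher and 1414 lower. Without TRE-MET samples 1, 2, 3 and 5 these were 820 and 923, and without samples 4, 6 and 7 2658 and 2746. The methods' test gave 1897 and 2051. In the fit of all 6 groups the counts were 2 for distant against control, 8 for tumors against distant, 2 for distant against TRE-MET and 1 for control against LAP-tTA liver, in place of 6, 5, 4 and 5. Of all probe sets that fit called 1096 higher and 1164 lower for distant against control, and 6171 and 5852 for tumors against distant liver. For distant against TRE-MET liver it called 2715 and 4495, and for control against LAP-tTA liver 1837 and 1874. At an adjusted p under 0.01 the member counts were 1 for adjacent against control, 3 each for tumors against distant, tumors against adjacent and control against LAP-tTA liver, and 2 for the contrast of both ages. In that order 1113, 7166, 8191, 1977 and 1886 probe sets were called at under 0.01. The contrast of both ages also had 2 members at under 0.05 without TRE-MET samples 4, 6 and 7, beside 2004 probe sets higher and 1986 lower. For tumors against adjacent liver the member count was 3 with the mouse as a random block and 3 to 7 on leaving out single mice. The random block called 5614 probe sets higher and 11690 lower. Of the neighbour pairs 5 differed after quantile normalization and 5 with equal medians.

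With the sample number as a replicate block (the same mouse in distant liver, adjacent liver and tumors, different mice elsewhere), Reln in control against LAP-tTA liver kept its difference of 0.33 and lost its call (adjusted p = 0.0648). No other member's call changed at its brightest probe set. Signs turned as follows. Without TRE-MET samples 1, 2, 3 and 5, Lrat was 0.33, Reln 0.056 and Acta2 -0.048 against LAP-tTA liver and Des 0.0014 in distant against TRE-MET liver. Without samples 4, 6 and 7, Lrat was 0.18 in the latter and Des 0.068 in the contrast of both ages. Without control samples 5 and 7, Lum was 0.0086 in distant and 0.091 in adjacent against control liver, and Des 0.0024 in the latter. With Xist it was 0.030. Equal medians gave -0.011 for Acta2 in adjacent against control, -8.0e-04 for Dcn and -0.035 for Ecm1 in adjacent against distant, 0.019 for Pdgfrb in distant against TRE-MET and 0.039 for Bgn in control against LAP-tTA liver. Without tumor 1b, Lum in tumors was -0.17, -0.081 and -0.16 against control, distant and adjacent liver, and without mouse 5 as well Des was -0.0014 against adjacent liver. The cause was not tested.

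Leaving out single mice turned the sign of Lrat (-0.26 to 0.018), Pdgfrb (-0.075 to 0.021) and Acta2 (-0.0083 to 0.069) in TRE-MET against LAP-tTA liver, of Lum (-0.12 to 0.14) and Des (-0.052 to 0.043) in adjacent against control liver, of Lum (-0.17 to 0.44) in tumors against control liver, of Lum (-0.13 to 0.44) in tumors against adjacent liver, and of Lrat (-0.097 to 0.082), Lum (-0.047 to 0.24), Ecm1 (-0.062 to 0.14) and Reln (-0.058 to 0.27) in adjacent against distant liver.

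Array intensities have no read depth: 7 mice per group limit the precision, and the Acta2 probe set was below the median level of all probe sets in every sample but tumor 1b.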
